A study of Mus musculus with 18 samples.

Results

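Tumours from wild-type (WT) mice given guanabenz were compared with tumours from WT mice given the control injection. The comparison takes 6 of the 18 libraries of the series, the 3 titled WT-Guanabenz and the 3 titled WT-Control, and all 16125 of the 21015 listed genes that had enough counts to be tested. Each library is bulk RNA from a tumour of MC38-OVA cells, a mouse colon carcinoma line carrying the model antigen ovalbumin. Mice had received guanabenz or PBS intraperitoneally every day, and tumours were taken 7 days after treatment at an age of 10 weeks, per the labels. The treatment entry of the WT-Control libraries reads untreated, while the treatment protocol names PBS. Groups from mice lacking Adra2a (KO) and from WT mice given clonidine are used below only to place the WT result. Only host cells carry the KO deletion, because the implanted tumour cells have their own genome. The labels give no dose, sex, host strain or hour of collection, and no animal identifiers, so a p-value here measures how far libraries differ, part of which may be technical.

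Guanabenz is an agonist of alpha2-adrenergic receptors, which couple to inhibitory G proteins and lower cyclic AMP in cells that carry them. It has also been reported to bind Ppp1r15a, the stress-induced subunit of the phosphatase that removes the phosphate from the translation factor eIF2. Phosphorylated eIF2 slows translation in general and favours translation of the transcription factor ATF4, which turns on genes for amino acid supply. The circadian clock, the pathway of the gene with the smallest p, is a loop in which Arntl (also called Bmal1) and Clock activate the Per and Cry genes, whose products then repress that activation.

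WT-Control libraries held 98760661, 96450926 and 491137160 counts, and WT-Guanabenz libraries 54683838, 67403230 and 151490756. Levels below are CPM, counts per 1e+06 scaled counts. The markers listed for stroma and immune cells were present, with Adgre1, a macrophage surface protein, between 195 and 256 CPM in the 6 libraries. Epithelial markers were low but not alike. Control and guanabenz means were 0.264 and 0.142 CPM for Krt8 and 0.186 and 0.0712 CPM for Krt18, with no counts for Cdx2. Epcam was at 0.994 and 1.47 CPM and Cdh1, the highest of the list, at 4.45 and 6.05 CPM. Both were highest in WT-Guanabenz 3, at 2.75 and 9.76 CPM. WT-Guanabenz 3 and WT-Guanabenz 1 stood apart from the other libraries. WT-Guanabenz 3 lay at 36.01 on the first principal component of the 500 most variable genes, against -16.24 to 5.61 for the other libraries. WT-Guanabenz 1 lay at -23.84 on the second component, against -4.38 to 15.64 for the other 5. WT-Guanabenz 3 held the hair follicle keratin Krt71 at 20.95 CPM where the others held 0 to 3.79 CPM (a gene chosen after its values were seen). The same library lacked Y-linked transcripts, which were present in 3 of 3 WT-Control and 2 of 3 WT-Guanabenz libraries. In bulk tumour, fewer cells of a type and less RNA per cell cannot be told apart.

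Guanabenz against control gave small differences spread over many genes. By edgeR's quasi-likelihood test with Benjamini-Hochberg adjustment 0 genes (0%) passed an adjusted p under 0.05, the smallest adjusted p being 0.0504 for Per2. At an unadjusted p under 0.05 there were 836 genes higher (5.18%) and 1009 lower (6.26%), 11.4% in all, and at a p under 0.01 there were 564 (3.5%). The median log2 fold change over all tested genes was 0.01, and 52.2% of genes had a value above 0. With total-count scaling the split at an unadjusted p under 0.05 turned to 1276 higher and 613 lower, and the median over all genes to 0.04. DESeq2 called 173 genes (1.07%), 66 higher and 107 lower, and limma-voom called 6 (0.0372%). All 6 were also among the DESeq2 calls. They were Per2, Per3, Tef and Ctdspl2, higher, and Atp5md and Rps27a, lower.

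The 20 genes with the smallest p held 3 clock genes, Per2, Per3 and Tef. Of 24 tested members of the clock list, 8 were higher and 1 was lower at an unadjusted p under 0.05 (5.18% and 6.26% of all genes), and the list's median was 0.15 beside 0.01 for all genes. Groups did not overlap for 9 members, all higher in the guanabenz libraries, where 6.41% of all genes were higher without overlap. Per2, a repressor of the clock (gene 18627, chromosome 1, 91415977 to 91459351, GRCm38.p6), was at 6.38, 4.68 and 3.83 CPM in the WT-Control libraries and at 10.2, 11.7 and 10.8 CPM in the WT-Guanabenz libraries. The lowest guanabenz value lay well above the highest control value. Its difference was 1.15 on the log2 scale (SE 0.17, unadjusted p = 3.12e-06), or 2.21-fold. With each library left out in turn the difference stayed between 0.98 and 1.37.

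Per3, a close relative of Per2, was at 7.91, 9.15 and 6.82 CPM in the control libraries and at 10.5, 18.2 and 14.3 CPM with guanabenz. The ranges did not overlap, and the log2 difference was 0.85 (SE 0.17, edgeR adjusted p = 0.141). Per1, the third Per gene, which also responds quickly to glucocorticoids and cyclic AMP, went from 34.6, 21.0 and 23.3 CPM to 46.4, 38.1 and 36.5 CPM. Its control value in library 1 came close to the lowest guanabenz value, and the log2 difference was 0.62 (SE 0.21, edgeR adjusted p = 0.289). Cry1, a partner of the Per proteins in repression, was at 0.16 (SE 0.12).

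Output genes of the clock include the transcription factors Dbp, Tef and Hlf, which bind the D-box element. Dbp was at 6.72, 7.64 and 5.17 CPM in the control libraries and at 9.49, 20.4 and 14.0 CPM with guanabenz. All 3 guanabenz values were above all control values, although they differed among themselves by more than the control values did. The log2 difference was 1.18 (SE 0.27, edgeR adjusted p = 0.167). Tef, of the same family, went from 61.1, 59.2 and 53.7 CPM to 85.6, 102 and 74.8 CPM, again without overlap, with a difference of 0.59 (SE 0.12, edgeR adjusted p = 0.141). The third member, Hlf, was at 0.63 (SE 0.21) and Nr1d2, which codes for a nuclear receptor that represses Arntl, at 0.51 (SE 0.14); these 2 genes are named after their values were seen. Nr1d1, its sister gene, was at 0.37 (SE 0.19) with no overlap between groups.

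On the activating side of the loop Arntl was lower. It was at 16.4, 16.5 and 20.7 CPM in the control libraries and at 17.7, 10.6 and 11.9 CPM with guanabenz, so that WT-Guanabenz 1 lay inside the control range and the other 2 below it. The log2 difference was -0.42 (SE 0.16, unadjusted p = 0.0181). Among genes picked after their values were seen, its partner Clock was at 0.12 (SE 0.09), and the kinases Csnk1d and Csnk1e, which mark Per proteins for decay, were at -0.01 (SE 0.05) and -0.03 (SE 0.08).

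**Figure D1:**
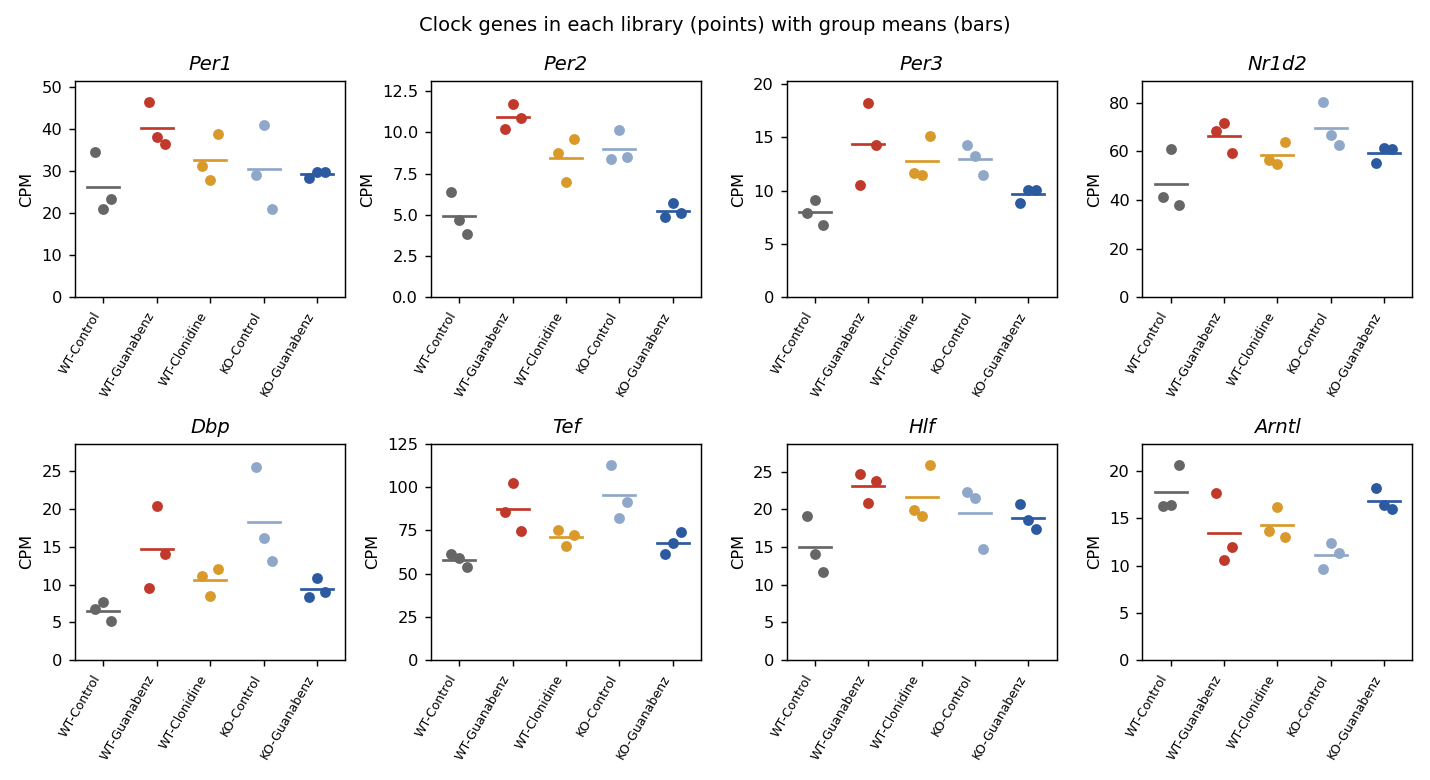
CPM (vertical axes, from 0) of 8 clock genes in each library (points) of 5 groups (horizontal axis), with group means as bars. In WT mice Per2 was at 3.83 to 6.38 CPM in control and 10.2 to 11.7 CPM in guanabenz libraries, while the libraries titled KO-Guanabenz (4.89 to 5.74 CPM) lay below KO-Control.

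The promoters of clock genes carry known binding elements. Those of Per3 and Tef are shown because these genes were among the 20 with the smallest p, and 1 of Per1 because it holds both elements. No promoter of Per2 was among the sequences at hand, so Per2 was not searched. Letters in capitals are the E-box CACGTG, bound by Arntl with Clock, and the D-box TTATGNAA, bound by Dbp, Tef and Hlf, on either strand in the 250 bases before the start of transcription. The sequences are from RefSeq on GRCm38.p6, at chr4:151044666-151044915 for Per3 (minus strand), chr11:69098699-69098948 for Per1 (plus strand) and chr15:81802423-81802672 for Tef (plus strand).
Per3: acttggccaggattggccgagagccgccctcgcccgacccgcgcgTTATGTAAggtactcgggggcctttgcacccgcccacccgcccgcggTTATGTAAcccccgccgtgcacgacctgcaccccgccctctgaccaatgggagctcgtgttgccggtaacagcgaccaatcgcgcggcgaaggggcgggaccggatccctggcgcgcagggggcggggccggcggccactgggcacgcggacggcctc
Per1: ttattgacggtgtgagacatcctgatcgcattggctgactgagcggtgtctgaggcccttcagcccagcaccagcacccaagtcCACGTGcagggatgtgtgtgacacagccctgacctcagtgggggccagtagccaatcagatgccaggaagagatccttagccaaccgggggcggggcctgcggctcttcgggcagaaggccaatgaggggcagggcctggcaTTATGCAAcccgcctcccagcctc
Tef: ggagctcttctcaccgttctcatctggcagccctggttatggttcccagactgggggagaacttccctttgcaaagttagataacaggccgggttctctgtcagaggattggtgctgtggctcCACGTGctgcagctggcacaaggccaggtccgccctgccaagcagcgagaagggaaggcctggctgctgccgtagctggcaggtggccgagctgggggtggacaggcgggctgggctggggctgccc
Per3 holds 2 D-boxes, Per1 holds 1 E-box and 1 D-box, and Tef holds 1 E-box in this window. A second Per1 promoter in the table (chr11:69099902-69100151) holds 0 of these elements, and a second Tef promoter (chr15:81811164-81811413) holds 1. Of 19 clock list genes with a promoter in the table, 5 (26.3%) hold CACGTG, 4 (21.1%) hold the related CACGTT and 3 (15.8%) hold TTATGNAA. Over all genes with a promoter the shares are 6.86%, 4.5% and 3.63%. Over tested genes, from which the list members come, they are 9.15%, 5.09% and 2.63%. These are matches of letters only, and of 61 matches to any of the motifs searched in 3 lists, 1 neighbouring pair shared bases.

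Per2 differed between WT mice and mice without Adra2a in its difference with guanabenz. In the libraries named KO-Guanabenz (their titles say guanabenz, their treatment field says untreated) Per2 was at 4.89, 5.74 and 5.09 CPM, against 8.38, 10.1 and 8.49 CPM in KO-Control. Guanabenz libraries were the lower ones there, without overlap, by -0.78 (SE 0.17, edgeR adjusted p = 0.08). The WT and KO comparisons share no library, and the WT difference exceeded the KO difference by 1.93 (SE 0.24, edgeR adjusted p = 0.00546). Per2 was the 1 gene of 16125 (0.0062%) to pass this test. Tef (1.09, SE 0.17, edgeR adjusted p = 0.08), Per3 (1.28, SE 0.24) and Dbp (2.13, SE 0.39) had positive values in the same test, and Arntl had -1.01 (SE 0.23), none of them past the threshold. Per1, Hlf and Nr1d1 were near 0 in KO, at -0.05, -0.04 and -0.05. Over the clock list 10 of 24 genes had a positive and 1 a negative value at an unadjusted p under 0.05 in this test, with a median of 0.42, where all genes gave 3.13% and 2.58% (5.71% in all). The control groups differed too, KO-Control holding 8.38 to 10.1 CPM and WT-Control 3.83 to 6.38 CPM, ranges that do not overlap. Levels in the WT-Guanabenz libraries were 10.2 to 11.7 CPM, the highest of these 4 groups. The labels give no hour of collection, and its part in the values of the clock genes was not tested.

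Of 30 tested targets of ATF4, 24 had values below 0, against 47.8% of all genes, and 10 were lower and 0 higher at an unadjusted p under 0.05, where 6.26% of all genes were lower. No member passed the adjusted threshold in edgeR, and the 10 became 2 without WT-Control 3. The median was -0.18, and 8 members were lower without overlap (8.19% of all genes). Trib3, a pseudokinase that feeds back on ATF4, was at 38.4, 33.7 and 59.1 CPM in the control libraries and at 33.1, 30.5 and 28.2 CPM with guanabenz. No guanabenz value reached a control value, but the gap was narrow and the control library 3 was far above the other 2. Its difference was -0.52 (SE 0.18, edgeR adjusted p = 0.282).

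Sesn2, a leucine sensor that restrains mTORC1, went from 35.0, 31.9 and 38.1 CPM to 28.8, 25.4 and 30.4 CPM, with no overlap and a log2 difference of -0.31 (SE 0.10). Psph, the last enzyme of serine synthesis, was at -0.21 (SE 0.08). Atf4 itself was at 252, 237 and 275 CPM against 220, 200 and 256 CPM, a difference of -0.18 (SE 0.08) with overlap. Ddit3, which codes for the stress factor CHOP, was at -0.22 (SE 0.10). Gdf15, a secreted stress cytokine, went the other way at 0.76 (SE 0.38), with 2.20 CPM in WT-Guanabenz 3 and 0.576 to 0.913 CPM elsewhere, and is named after its value was seen. Without WT-Control 3 the list's median was -0.09. The count of lower members was 4 without WT-Guanabenz 2 (median -0.17) and 6 with total-count scaling.

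The element TGATGNAA is part of the site that ATF4 shares with C/EBP factors. It is in the promoter window of 8 of 27 ATF4 list genes (29.6%), of 3.91% of all genes and of 2.7% of tested genes. Asns, asparagine synthetase, and Chac1, which degrades glutathione, are shown as examples, with the element in capitals. Both were chosen after their values were seen. They lie at chr6:7693210-7693459 (minus strand) and chr2:119350992-119351241 (plus strand), from RefSeq on GRCm38.p6.
Asns: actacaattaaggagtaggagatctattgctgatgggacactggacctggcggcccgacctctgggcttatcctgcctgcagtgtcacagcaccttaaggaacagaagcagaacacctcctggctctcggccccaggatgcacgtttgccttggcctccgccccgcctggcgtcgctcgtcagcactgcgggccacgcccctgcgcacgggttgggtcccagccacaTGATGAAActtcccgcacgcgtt
Chac1: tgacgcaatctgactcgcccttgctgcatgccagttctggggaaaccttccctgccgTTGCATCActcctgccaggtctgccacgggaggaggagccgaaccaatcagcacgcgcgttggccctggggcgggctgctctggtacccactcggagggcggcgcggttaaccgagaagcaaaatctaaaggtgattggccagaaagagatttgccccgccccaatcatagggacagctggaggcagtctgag
The match in Chac1 is on the opposite strand. Asns was at 104, 96.9 and 124 CPM in control and 92.8, 81.0 and 91.8 CPM in guanabenz libraries (log2 difference -0.29, SE 0.11). Chac1 was at 6.35, 6.50 and 9.48 CPM against 5.94, 4.95 and 5.56 CPM (-0.45, SE 0.18). Neither gene overlapped between the groups.

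Upstream of ATF4, Ppp1r15a and Ppp1r15b differed little between the groups. Ppp1r15a is the phosphatase subunit that guanabenz has been reported to bind. It was at 26.0, 23.8 and 31.0 CPM in the control libraries and 25.8, 22.03 and 27.4 CPM with guanabenz. The groups overlapped, and the difference was -0.10 (SE 0.19). Its constitutive relative Ppp1r15b was at -0.06 (SE 0.07). Of 17 tested genes of the eIF2 kinases, eIF2 and eIF2B subunits and phosphatase parts, 3 were lower and 0 higher at an unadjusted p under 0.05. They were Eif2b2 (-0.25, SE 0.09) and Eif2b4 (-0.20, SE 0.09), subunits of the exchange factor that reloads eIF2, and Ppp1ca (-0.23, SE 0.10), a catalytic phosphatase subunit. Of all genes, 6.26% were lower at that threshold.

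Aminoacyl-tRNA synthetases, several of which ATF4 controls, had 16 of 19 values below 0 (47.8% of all genes) and a median of -0.09. At an unadjusted p under 0.05, 2 were lower, where 6.26% of all genes were lower. The 2 were the serine enzyme Sars (-0.20, SE 0.07) and the cysteine enzyme Cars (-0.21, SE 0.08). Without WT-Control 3 the list's median was -0.01. Chaperones of the endoplasmic reticulum were split, with 12 of 22 above 0 and a median of 0.02. Atf6, a sensor of misfolded protein, was at 0.22 (SE 0.07), and Xbp1, a factor of another branch of that response, at -0.15 (SE 0.07). Cytosolic heat shock genes had a median of 0.01 and no member at an unadjusted p under 0.05.

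Receptors for the drug class were scarce in these tumours. Adra2a (gene 11551, chromosome 19, 54045259 to 54048982), the receptor absent from KO hosts, was at 0.589, 0.401 and 0.286 CPM in the control libraries and at 0.423, 0.426 and 0.448 CPM with guanabenz. Its difference was 0.05 (SE 0.32), of a sign that changed when WT-Control 3 was left out (-0.19) or counts were thinned to a common depth (-0.21). In the KO-Control libraries it was at 0.106, 0.231 and 0.199 CPM. Adra2b was at 0.244 to 0.380 CPM and 0.368 to 0.473 CPM, and Adra2c did not reach the level needed for a test, with at most 0.0264 CPM. All 8 tested adrenergic receptor genes had values above 0, with a median of 0.18. The 1 at an unadjusted p under 0.05, the beta receptor Adrb1, rested on WT-Guanabenz 1, at 2.24 CPM where the other 5 libraries held 0.464 to 0.771 CPM.

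Genes of G protein and cyclic AMP signalling had a median of 0.06, with 2 of 40 higher and 0 lower at an unadjusted p under 0.05, a share near the 5.18% of all genes. The 2 are given as values only. Creb1, a transcription factor activated through cyclic AMP, was at 58.0, 62.6 and 61.5 CPM against 72.4, 70.8 and 63.4 CPM, without overlap (0.18, SE 0.07). Pde3b, which breaks cyclic AMP down, was at 0.20 (SE 0.09). The immediate early list, which holds Fos, Jun and Nr4a genes, had a median of 0.00 with no member at an unadjusted p under 0.05.

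All 79 cytosolic ribosomal protein genes were below 0, with 57 lower at an unadjusted p under 0.05 (6.26% of all genes) and a median of -0.17. None passed the adjusted threshold in edgeR. Rps14, of the small subunit, was at 1629, 1276 and 1347 CPM in the control libraries and at 1088, 1023 and 974 CPM with guanabenz (-0.46, SE 0.10, edgeR adjusted p = 0.141). Rps27a, made as a fusion with ubiquitin, was at 967, 912 and 878 CPM against 698, 713 and 800.2 CPM (-0.32, SE 0.07). In both genes every guanabenz library was below every control library. The share of all counts in this list was 5.8% to 6.46% in the control libraries and 5.21% to 5.77% with guanabenz, so that the ranges did not overlap but lay close together. The count of lower members was 27 without WT-Control 1 (median -0.12), 32 without WT-Guanabenz 1, 35 without WT-Guanabenz 2, 33 with total-count scaling and 35 with the compared groups fitted alone. Ribosomal protein genes have near-identical processed copies, between which reads could have been divided.

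Nuclear-encoded subunits of oxidative phosphorylation were below 0 in all 74 tested genes, with a median of -0.14. At an unadjusted p under 0.05, 31 were lower, where 6.26% of all genes were lower. Uqcrq, a subunit of complex III, was at 128.9, 124.6 and 129.9 CPM in the control libraries and at 101, 109.8 and 102.5 CPM with guanabenz (-0.29, SE 0.06). Cox4i1, of cytochrome oxidase, went from 429.8, 397 and 434 CPM to 366, 357 and 327 CPM (-0.26, SE 0.06). Ndufb8, of complex I, was at -0.34 (SE 0.09). None of these 3 genes overlapped between the groups. Mitochondrial ribosomal proteins had a median of -0.13 with 73 of 77 below 0. In that list 25 were lower at an unadjusted p under 0.05 (6.26% of all genes), led by Mrpl11 (-0.33, SE 0.08). The lower members of oxidative phosphorylation numbered 15 without WT-Control 1, 18 without WT-Guanabenz 1 and 19 without WT-Guanabenz 2. Those of the mitochondrial ribosome numbered 12 without WT-Control 1, 16 without WT-Control 3, 13 without WT-Guanabenz 2 and 38 without WT-Control 2. With total-count scaling the counts were 18 and 14, and with the compared groups fitted alone 17 and 14.

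Differences also followed transcript length. Genes were put in 5 bins of about equal size by transcript length. In the bin with the shortest transcripts the median log2 difference was -0.04 and 59.4% of genes were below 0, while in that with the longest the median was 0.08 and 31.7% were below 0. The WT-Guanabenz libraries 1 and 2 sloped most, at 0.097 and 0.079 in the longest bin, and WT-Guanabenz 3 was at 0.025 beside 0.043 in WT-Control 2. Median transcript lengths were 628.5 bases for cytosolic ribosomal proteins, 849.5 for mitochondrial ones and 607.5 for oxidative phosphorylation, against 1539 bases for all tested genes. After each library's trend with length was removed their medians were -0.12 for cytosolic ribosomal proteins and -0.10 for both mitochondrial lists, from -0.17, -0.13 and -0.14. The part of length in these results was not tested further.

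**Figure D2:**
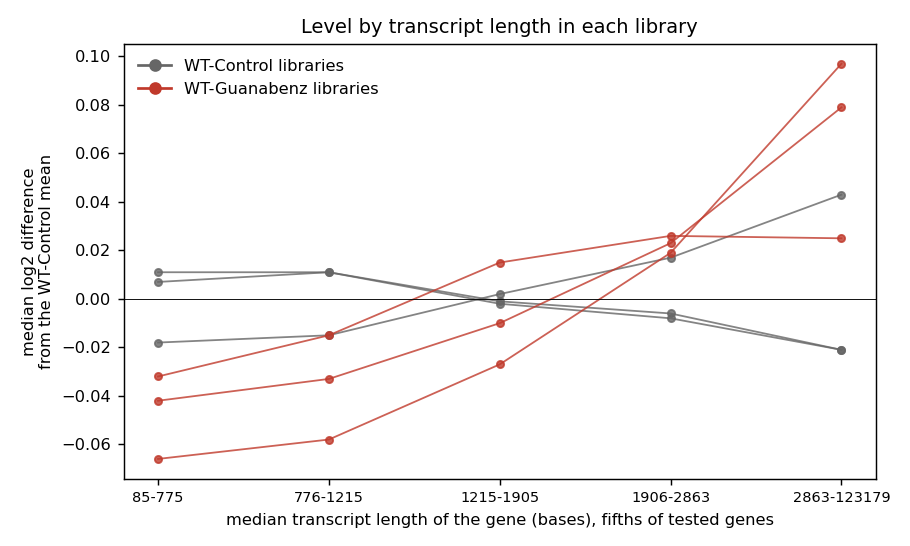
Median log2 difference from the WT-Control mean (vertical axis) in 5 bins of tested genes by transcript length (horizontal axis, bases), one line per library. WT-Guanabenz libraries (red) run from -0.066, -0.042 and -0.032 in the shortest bin to 0.097, 0.079 and 0.025 in the longest, and WT-Control libraries (grey) stay between -0.021 and 0.043.

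Of 38 tested genes of the G2 and M phase list, 11 were higher and 0 lower at an unadjusted p under 0.05, where 5.18% of all genes were higher, and the median was 0.11. None passed the adjusted threshold in edgeR. Mastl, the kinase that holds off the phosphatase PP2A during mitosis, was at 22.5, 24.2 and 22.9 CPM in the control libraries and at 30.4, 30.1 and 30.3 CPM with guanabenz. The guanabenz values were close to each other and above all control values. Its difference was 0.38 (SE 0.07, edgeR adjusted p = 0.141). Mki67, a marker of proliferating cells, went from 295, 284 and 273 CPM to 352, 355 and 322 CPM (0.27, SE 0.08), and the kinetochore protein gene Cenpf was at 0.25 (SE 0.07). The count of 11 was 6 without WT-Control 1 and 7 without WT-Guanabenz 1 or WT-Guanabenz 2.

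In the S phase list 32 of 36 values were above 0, with a median of 0.09. The 3 at an unadjusted p under 0.05 (5.18% of all genes were higher) were Pole (0.37, SE 0.10) and Pola1 (0.32, SE 0.11), catalytic subunits of DNA polymerases, and Prim1 (0.19, SE 0.08), of primase. Pola1 was at 70.7, 70.3 and 53.95 CPM with guanabenz, the last (WT-Guanabenz 3) inside the control range of 45.8 to 55.6 CPM. Among p53 targets 2 of 16 were lower at an unadjusted p under 0.05, where 6.26% of all genes were, too few members to set apart from that share. Phlda3, an inhibitor of AKT, was at -0.33 (SE 0.08) and Bax, an activator of apoptosis, at -0.15 (SE 0.06).

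Genes of lipid and sugar metabolism leaned to one side as lists, with few single genes past even an unadjusted threshold. All 26 genes of cholesterol and fatty acid synthesis had values above 0 (52.2% of all genes), with a median of 0.16. At an unadjusted p under 0.05, 1 was higher, no more than the 5.18% of all genes that were. That was Elovl6, an elongase of fatty acids, at 66.6, 72.6 and 79.9 CPM in control and 102, 89.1 and 96.4 CPM in guanabenz libraries (0.39, SE 0.14). The control libraries differed more than the groups did, with list means of -0.22, -0.03 and 0.25 on the log2 scale relative to their average, against 0.25, 0.21 and 0.09 with guanabenz. Without WT-Control 3 the higher members numbered 14, and without WT-Control 1 there were 21 of 26 values above 0 and a median of 0.07. Hypoxia and glycolysis genes had 23 of 27 values below 0 (47.8% of all genes) and a median of -0.15. At an unadjusted p under 0.05 there were 0 (11.4% of all genes). The glycolytic enzymes Aldoa (-0.23, SE 0.13), Eno1 (-0.20, SE 0.12) and Ldha (-0.21, SE 0.13) had the smallest p of that list.

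**Figure D3:**
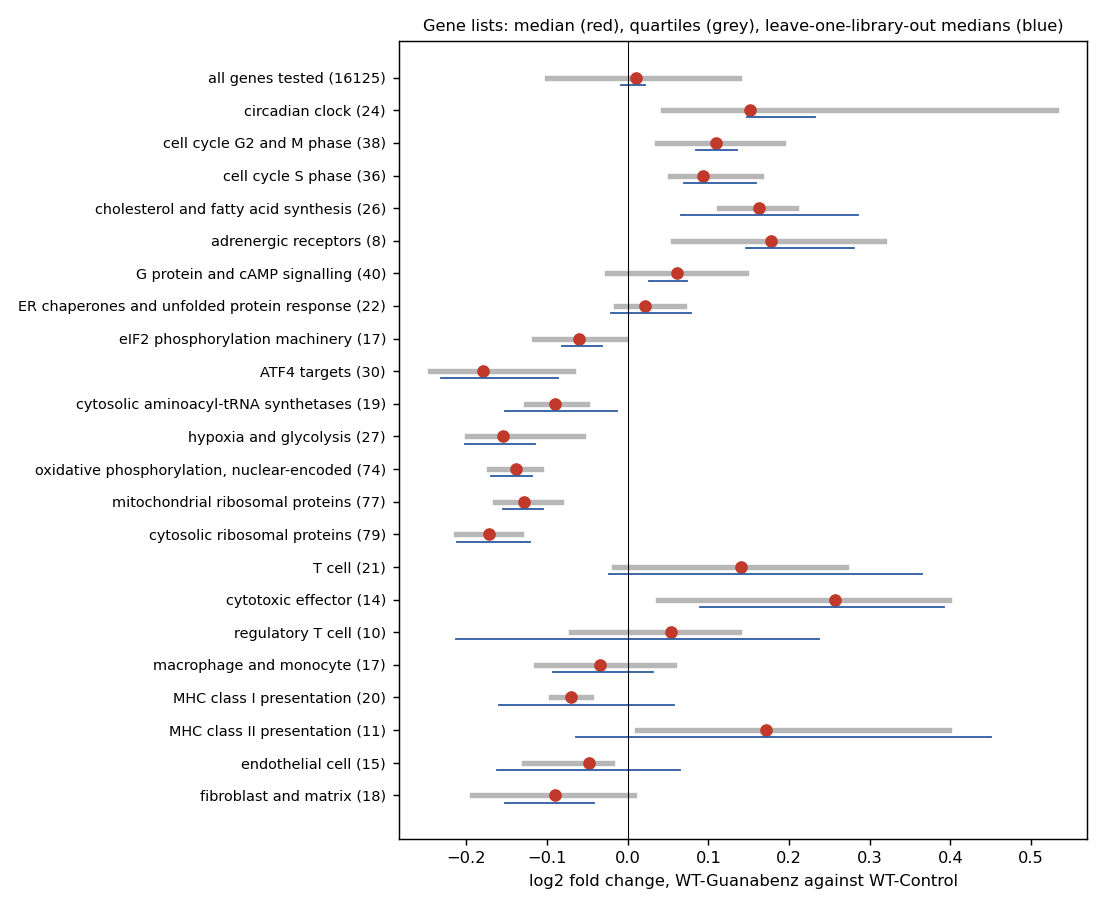
Median log2 fold change (red points, horizontal axis) of WT-Guanabenz against WT-Control in all tested genes and 22 gene lists (number of tested members in brackets), with quartiles in grey and the range of medians when each library is left out in blue. The clock list lies at 0.15 and the ATF4 list at -0.18, and immune lists such as regulatory T cell span 0 when single libraries are left out.

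Among the 20 genes with the smallest p, 8 were higher and 12 lower. Beside those described, the higher ones were Ctdspl2, a phosphatase-like protein gene (0.37, SE 0.07), Marchf1, a ubiquitin ligase that removes MHC class II from the surface (0.44, SE 0.09), Cpne1, a calcium-dependent membrane-binding protein gene (0.30, SE 0.06), and Steap2, a metalloreductase gene (0.32, SE 0.07). Marchf1 was at 25.7, 32.4 and 28.6 CPM against 37.2, 40.4 and 40.0 CPM. Lower ones include the assembly factors Ndufaf2 of complex I (-0.33, SE 0.07) and Cox7a2l of respiratory supercomplexes (-0.36, SE 0.07), the ATP synthase component Atp5md (-0.34, SE 0.07) and the proton pump subunit Atp6v0e (-0.24, SE 0.05). Mlycd, which degrades malonyl-CoA, was at 18.2, 18.1 and 17.9 CPM against 13.8, 15.2 and 12.7 CPM (-0.38, SE 0.08). Mzt2, a part of the microtubule nucleating complex, was at -0.37 (SE 0.08), Naa38 at -0.32 (SE 0.06), Sft2d1 at -0.26 (SE 0.05) and Tmem256 at -0.38 (SE 0.08). None of the 20 overlapped between the groups, and each but Per2 had an edgeR adjusted p of 0.141.

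The largest differences at an unadjusted p under 0.01 without overlap belonged to genes of modest level. Kcnt2, a sodium-activated potassium channel gene, was at 2.18, 2.03 and 2.85 CPM in control and 4.71, 4.87 and 8.62 CPM in guanabenz libraries, a difference of 1.37 (SE 0.36). Far2, which makes fatty alcohols, was at 0.86 (SE 0.29), with 7.66 CPM in WT-Guanabenz 3 and 0.37 when that library was left out. Gstk1, a glutathione transferase gene, was at 0.70 (SE 0.21). On the lower side Rtn4rl1, of the Nogo receptor family, was at -0.76 (SE 0.20). Dpyd, the first enzyme of pyrimidine breakdown, went from 5.83, 5.29 and 5.43 CPM to 3.27, 2.72 and 3.96 CPM (-0.73, SE 0.23). Arl5c, a small GTPase gene, was at -0.69 (SE 0.16), the retinol binding protein gene Rbp2 at -0.67 (SE 0.19), Sobp at -0.66 (SE 0.17) and Msrb2, a methionine sulfoxide reductase gene, at -0.61 (SE 0.14).

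The T cell list did not separate the groups, and single genes of other immune lists are given below. Of 21 tested T cell genes 14 had values above 0, with a median of 0.14, and 0 had an unadjusted p under 0.05. Cd8a, a coreceptor of cytotoxic T cells, was at 3.06, 7.06 and 6.92 CPM in control and 3.93, 10.1 and 7.87 CPM in guanabenz libraries (0.36, SE 0.36). Library 1 was the lowest of both groups. Cd3e, a chain of the T cell receptor complex, was at 0.08 (SE 0.30), Cd4 at -0.14 (SE 0.23) and Foxp3, the regulatory T cell factor, at 0.14 (SE 0.29). In the naive and memory lymphocyte list Lef1 (-0.33, SE 0.11) and Satb1 (-0.555, SE 0.20) were lower without overlap, as were 8.19% of all genes. The mean T cell level in WT-Guanabenz 1 was -0.496 on the log2 scale relative to the control mean, against 0.383 and 0.388 in WT-Guanabenz 2 and 3. The list's median was 0.37 when WT-Guanabenz 1 was left out. WT-Control 1 stayed in that fit. It was the lowest control library for Cd8a and for Cd3e (1.95 CPM against 3.84 and 3.68 CPM), among others, but the highest for Cd4, Cd6 and Ubash3a.

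Cytotoxic effector genes had a median of 0.26 with 11 of 14 above 0 (52.2% of all genes). Ifng, the main T and NK cell interferon, was at 0.162, 0.576 and 0.526 CPM against 0.423, 0.734 and 0.915 CPM (0.72, SE 0.46). Perforin, Prf1, was at 0.32 (SE 0.28) and granzyme B, Gzmb, at 0.08 (SE 0.35). In the checkpoint list Havcr2, which codes for TIM-3, was at 25.4, 29.6 and 28.9 CPM against 31.7, 32.3 and 39.5 CPM (0.31, SE 0.10). Its groups did not overlap, where 6.41% of all genes were higher without overlap. Havcr2 is given as a single gene, and which cells carried it cannot be told from bulk RNA. Pdcd1, which codes for PD-1, was at 0.22 (SE 0.21). Of interferon gamma response genes 20 of 27 were above 0 (median 0.12). Type I interferon genes had a median of -0.09 with 17 of 24 below 0 (47.8% of all genes). MHC class II genes varied within groups. Cd74, the class II invariant chain, was at 448, 578 and 993 CPM in control and 448.5, 857 and 1382 CPM in guanabenz libraries.

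Of myeloid genes, Itgam, an integrin of macrophages and neutrophils, was at 188, 269 and 244 CPM against 262, 296 and 319.5 CPM, with a difference of 0.32 (SE 0.12). Mrc1, a mannose receptor of alternatively activated macrophages, was at 240.2, 208 and 212 CPM against 342, 285 and 234 CPM (0.38, SE 0.16), and Adgre1 at 0.07 (SE 0.14). The median of 17 macrophage and monocyte genes was -0.03. Inflammatory mediators were set by 1 library. Il6 was at 14.0 CPM in WT-Guanabenz 3 and 0.433 to 0.974 CPM in the other 5, Cxcl2, a chemokine for neutrophils, at 39.1 CPM against 1.41 to 2.03 CPM, and Il1a at 10.6 CPM against 0.607 to 1.33 CPM. The median of that list went from 0.22 to -0.25 without this library.

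**Figure D4:**
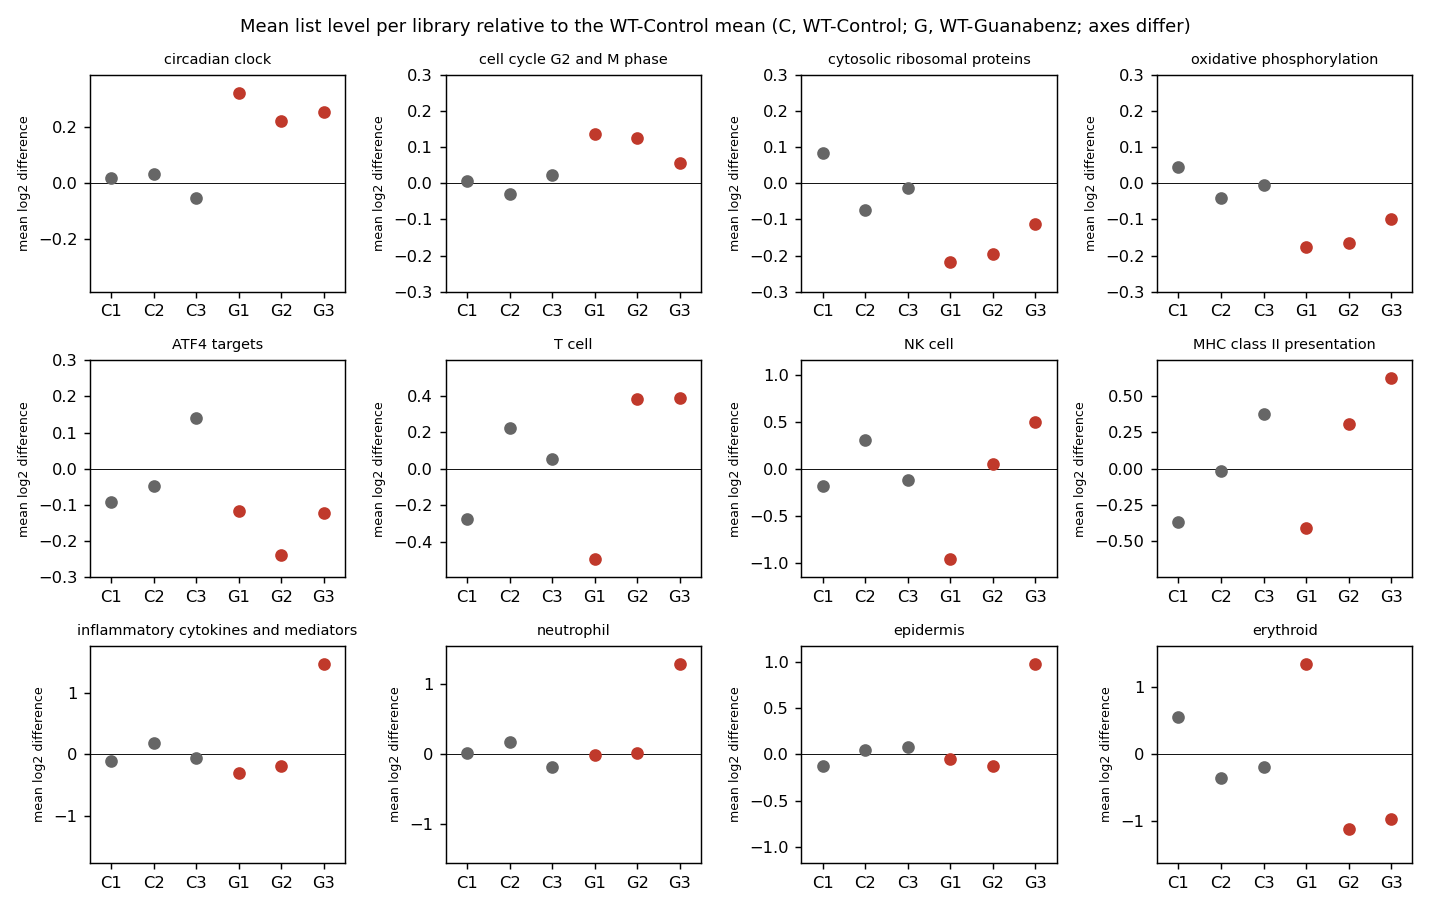
Mean log2 difference of 12 gene lists (vertical axes, scales differ) in each WT-Control (C, grey) and WT-Guanabenz (G, red) library relative to the WT-Control mean. Clock, ribosomal and oxidative phosphorylation lists separate the groups, whereas the T cell list splits guanabenz library 1 (-0.496) from 2 and 3, and the inflammatory list is at 1.468 in guanabenz library 3 alone.

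Markers of other tissues differed between single libraries rather than between groups. The epidermis list was at 0.977 in WT-Guanabenz 3 and between -0.131 and 0.084 in the other libraries, with Krt5, a basal keratin, at 102 CPM against 28.8 to 37.8 CPM. The erythroid list was at 1.354 in WT-Guanabenz 1 and at -1.114 and -0.973 in the other 2 guanabenz libraries, and Hba-a1, an alpha globin gene, at 443, 76.3 and 110.4 CPM there. WT-Guanabenz 1 also had the highest values of the glucocorticoid-induced genes Fkbp5 (291 CPM against 128 to 148) and Zbtb16 (5.51 CPM against 0.493 to 0.935), of which Fkbp5 is named after its values were seen. Tsc22d3, another gene of that list, was at 58.2, 51.0 and 51.6 CPM against 72.9, 63.7 and 62.6 CPM (0.31, SE 0.11), without overlap. Of structural genes Col1a1, a chain of type I collagen, was at 5135, 3712 and 3261 CPM against 3211, 2976 and 3247 CPM (-0.36, SE 0.17). Pecam1, of endothelium, was at -0.09 (SE 0.12). The part of these tissues in the clock, ribosomal and ATF4 results was not tested.

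Over all tested genes, clock genes included, WT and KO differences had the same sign more often than not. Of the 564 genes at an unadjusted p under 0.01 in WT, 467 (82.8%) had the same sign in the libraries titled KO-Guanabenz against KO-Control, where all tested genes gave 61.3%. The share was 87.2% for the 343 lower genes and 76% for the 221 higher ones. Across all genes the correlation of the 2 differences was 0.07, a description over genes that are not independent. In the KO comparison 74 of 79 cytosolic ribosomal proteins, 52 of 74 oxidative phosphorylation genes and 44 of 77 mitochondrial ribosomal proteins were lower at an unadjusted p under 0.05 (8.37% of all genes), with medians of -0.23, -0.18 and -0.18. The ATF4 list had a KO median of -0.01 with 3 of 30 lower, the G2 and M phase list -0.06 with 0 higher and 4 lower, and the clock list -0.08 with 1 higher and 7 lower, where 6.74% of all genes were higher and 15.1% either. edgeR called 2 genes in the KO comparison (0.0124%), Ndufa12, a complex I subunit (-0.42), and Hddc2 (-0.73), both lower and outside the naming rule.

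**Figure D5:**
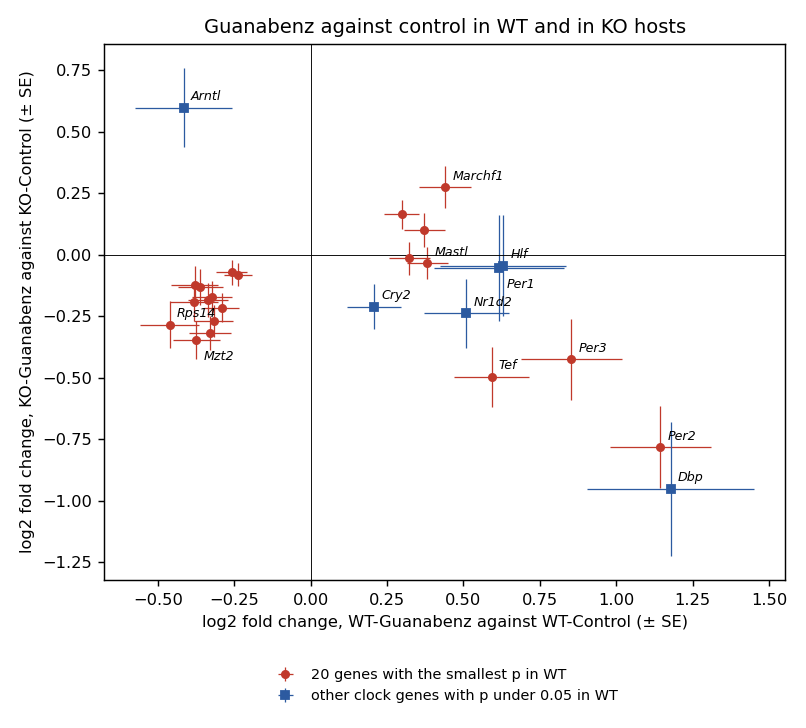
Log2 fold change with guanabenz in WT mice (horizontal axis) and in the libraries titled KO-Guanabenz against KO-Control (vertical axis), with bars of 1 SE, for the 20 genes with the smallest p in WT (red circles) and the other clock genes at an unadjusted p under 0.05 (blue squares). Lower genes such as Rps14 (-0.46 and -0.28) share their sign, and Per2 (1.15 and -0.78), Per3, Tef and Dbp lie in the opposite quadrant.

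Guanabenz and clonidine, the other alpha2 agonist of the series, were compared directly, 3 WT libraries each. A dichlorophenyl ring is common to both drugs. Clonidine joins it to a closed imidazoline ring, guanabenz to an open guanidine by way of a hydrazone. The doses are not in the labels, so dose and compound cannot be told apart. No gene passed in edgeR (0 genes, 0%; lowest adjusted p 0.551), while 4 did in DESeq2 and 1 in limma-voom. Unadjusted, 814 genes (5.05%) had a p under 0.05, of which 400 were higher (2.48%) and 414 lower (2.57%) with guanabenz. Per2 was at 8.72, 6.97 and 9.57 CPM with clonidine, all below the guanabenz range of 10.2 to 11.7 CPM, and the difference was 0.38 (95% interval 0.03 to 0.72, edgeR adjusted p = 0.957). For Dbp the difference was 0.48 (95% interval -0.09 to 1.05). Ribosomal and oxidative phosphorylation lists had medians of 0.00 and -0.03.

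Where lists parted between the drugs, T cell genes were lower with guanabenz, with a median of -0.51. At an unadjusted p under 0.05, 8 of 21 were lower, where 2.57% of all genes were lower and 2.48% higher. Cd3e was at -0.79 (SE 0.30) and Foxp3 at -0.69 (SE 0.29). The part of WT-Guanabenz 1, the lowest of the 6 libraries above in T cell genes, was not tested. Endothelial genes had a median of -0.29 with 9 of 15 lower. On the higher side were hypoxia and glycolysis (0.31, 6 of 27 higher), cholesterol and fatty acid synthesis (0.24, 5 of 26), the clock (0.18, 5 of 24) and ATF4 targets (0.15, 5 of 30). Trib3 was at 0.49 (SE 0.18) and Ldha at 0.29 (SE 0.13).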

How the data were processed

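RNA from 18 tumour libraries was compared, as 6 groups of 3 by title. The authors deposited estimated counts per gene as whole numbers, and per the submitters' processing notes the tools were Trim Galore 0.6.5 and kallisto 0.46.0, with GRCm38 as the build. How transcripts were summed to genes and the strand setting are not stated in the labels, and overlapping or near-identical genes are therefore uncertain. Of 21015 identifiers 20994 matched a RefSeq symbol, the other 21 holding at most 0.0216% of the counts, and 1829 genes had no counts. Totals ran from 54683838 to 491137160 counts, so the spread between libraries (biological coefficient of variation 0.145) set the precision.

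Genes were kept with filterByExpr (16125) and scaled by TMM. One edgeR 4.0.16 model (R 4.3.3) held the 18 libraries as 6 groups (12 residual and 4.35 prior degrees of freedom). Quasi-likelihood tests were two-sided and adjusted by Benjamini-Hochberg over all tested genes, with an adjusted p under 0.05 as a call. CPM are per 1e+06 scaled counts. List levels per library are mean log2 CPM with a prior count of 2. Length trends were removed with lowess (span 0.3), lengths being known for 98.5% of genes.

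The comparison, its members and the 45 gene lists (985 of 1001 entries matched) were chosen with earlier results of these data known. Named genes were the 20 with the smallest p, up to 6 per direction with the largest change among those at p under 0.01, no overlap and mean log2 CPM not below 1, fixed key genes, and up to 3 per list by p. On simulated counts for WT-Guanabenz against WT-Control over 16125 genes, 71% of 2-fold and 85% of 3-fold changes were recovered, with 7 false calls. Other settings tried were limma-voom with sample quality weights (limma 3.58.1), DESeq2 1.42.0, RLE and total-count scaling, no filter, a stricter filter of 1 CPM in 3 libraries, a replicate block, fewer groups, thinned counts, a Y-linked term and omission of each library.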

Additional observations from a re-analysis of the deposited data

Results flagged for a closer look

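Per2 stands out because its difference between guanabenz and control libraries was not the same in WT and KO mice, by a test of the difference itself. The control groups differed too, with 8.38 to 10.1 CPM in KO-Control and 3.83 to 6.38 CPM in WT-Control. The labels give no hour of collection, and its part in this result was not tested. The difference of the log2 changes was 1.93 (SE 0.24, edgeR adjusted p = 0.00546), with 1.15 in WT and -0.78 for KO-Guanabenz against KO-Control, the former named for guanabenz by title but untreated by treatment field. All 3 guanabenz libraries were above all controls in WT and all 3 below in KO. It passed in all 22 alternative settings run, with values from 1.77 to 2.15 and adjusted p from 6.3e-12 to 0.037.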

How the results depend on the processing

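Calls for guanabenz in WT were 0 by edgeR, 173 by DESeq2, 6 by limma-voom and 1 (Per2) with RLE scaling, total-count scaling or no low-count filter. Leaving out each library gave 0 to 10, with 1 (Per2) without WT-Control 1 and 10 without WT-Control 2, among them Nr1d2, Ctdspl2, Marchf1 and Cox7a2l. The adjusted p of Per2 ranged from 5.7e-08 (DESeq2) to 0.57 (compared groups only). For WT against KO the count was 1, and 13 by DESeq2, 2 by limma-voom, 2 with total-count scaling and 1 to 4 without single libraries (4 without WT-Guanabenz 1, 2 without WT-Control 2, WT-Guanabenz 3 or KO-Control 2). Guanabenz against clonidine gave 0, and 4 by DESeq2, 1 by limma-voom and 0 to 1 without single libraries (1 without WT-Guanabenz 3). Guanabenz in KO gave 2, and 443 by DESeq2, 343 by limma-voom, 15 with total-count scaling, 19 with the strict filter, 8 with thinned counts, 11 with a Y-linked term, 0 with these groups alone and 0 to 105 without single libraries (105 without KO-Guanabenz 3, 22 without KO-Control 1, 0 without the other 4). The cause of these shifts was not tested. Whether replicate numbers pair the libraries was not settled. Deviations of same-numbered libraries correlated at 0.075, 0.048 and 0.079, and those of other pairs at -0.107 to 0.055. WT-Guanabenz 1 and 3 correlated best with the control of their own number, and WT-Guanabenz 2 with WT-Control 1 (0.055). These values are weak and do not exclude a pairing. With the number as a block the counts were 0 in WT, 1 for WT against KO, 0 against clonidine and 0 in KO. Of values for named genes 2872 kept their sign and side of the threshold, 48 came to pass and 33 changed sign with no call, most often when WT-Guanabenz 1 or 3 was left out. Of list medians 706 moved by less than the spread between libraries and 14 by more.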
